A study of Mus musculus with 4 samples.

Results

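The genes that copy DNA in S phase and make its building blocks were followed across 4 kinds of mouse CD4 T cell. The list holds 46 genes, chosen by symbol for their place in origin licensing, the replicative helicase, the polymerases, the sliding clamp and its loader, single-stranded DNA binding and ligation, deoxynucleotide synthesis, entry into S phase and chromatin assembly. Of these, 43 had a named probe on the Illumina bead array, with 67 probes in all, out of 25697 probes and 16590 named genes. Gins1, Gins2 and Rfc3 had no named probe.

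The series asks how induced regulatory T cells (iTreg) grown with vitamin C compare with conventional iTreg, natural regulatory T cells (natural Treg) and naive CD4 T cells. All cells came from male mice of the strain B6.Cg-Foxp3tm2Tch/J, in which green fluorescent protein (GFP) reports Foxp3, the transcription factor that defines regulatory T cells. Vitamin C iTreg were naive CD4 cells cultured for 5 to 6 days (5 days in the series text) with antibodies to CD3 and CD28 at 1 µg/ml each, IL-2 at 15 ng/ml, TGF-beta at 10 ng/ml and vitamin C at 10 µg/ml, and then sorted again as GFP+ CD25+ cells. Conventional iTreg had the same culture and sort without vitamin C. Natural Treg were CD4+ CD8- GFP+ cells, and naive CD4 cells were CD4+ CD8- GFP- cells with low CD44, both sorted directly from lymph node and spleen with no culture. The labels do not say how many mice gave each sample. Each group had 1 array, so every difference is between a pair of arrays, has no replicate error and carries no test. Culture and iTreg identity cannot be told apart in any comparison of iTreg with cells taken ex vivo.

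Replication begins at origins that are licensed before S phase, when the origin recognition complex, Cdc6 and Cdt1 load the ring of Mcm2 to Mcm7 proteins onto DNA. The kinase Cdc7, Mcm10 and the GINS complex then turn the loaded ring into a moving helicase, polymerases alpha, delta and epsilon copy the strands, and the clamp Pcna holds the polymerases on DNA. Naive T cells rest outside the cell cycle, and stimulation through the antigen receptor brings them into it, when cyclin E and the E2F transcription factors switch on many genes of this list.

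Promoter sequences are shown because E2F binding words are a known shared feature of S phase genes, and these genes were high together in the cultured cells. RefSeq windows on build GRCm38.p6, 250 bases before to 50 bases after an annotated start, were at hand for 38 of the 46 genes, and 6 of these had several windows. The words searched, on both strands, were TTTCCCGC, TTTCGCGC, TTTGCCGC and TTTGGCGC, and matches may overlap. The stretches of Mcm5 and Mcm6, which encode subunits of the helicase ring, cover the 200 bases before the outermost annotated start of the gene, read 5′ to 3′ along the gene, with the words in capitals.
Mcm5, chr8:75109268-75109467, plus strand: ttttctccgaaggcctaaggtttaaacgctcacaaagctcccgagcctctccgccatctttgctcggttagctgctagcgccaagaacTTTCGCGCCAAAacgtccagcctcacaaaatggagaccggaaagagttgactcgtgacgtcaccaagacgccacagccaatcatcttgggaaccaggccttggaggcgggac
Mcm6, chr1:128359706-128359905, minus strand: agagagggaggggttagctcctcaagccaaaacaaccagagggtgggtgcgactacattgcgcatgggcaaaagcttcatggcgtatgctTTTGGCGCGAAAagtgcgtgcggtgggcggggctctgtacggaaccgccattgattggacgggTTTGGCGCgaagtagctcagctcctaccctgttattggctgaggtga
For other compared genes with a word, the word is shown in capitals with 10 bases on each side. In Cdc6 and Mcm7 an annotated start lies further upstream than the window's own, and the words of Lig1, Mcm3 and Cdt1 lie after the start. The word of Pold1 and a further word of Mcm3 lie too near the window's end to be shown this way.
Cdc6, chr11:98908003-98908030, plus strand: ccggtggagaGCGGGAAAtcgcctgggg
Cdt1, chr8:122568037-122568064, plus strand: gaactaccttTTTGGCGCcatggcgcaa
Lig1, chr7:13278842-13278869, plus strand: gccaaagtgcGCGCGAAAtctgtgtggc
Mcm3, chr1:20820276-20820303, minus strand: aacttccgtgGCGGGAAAacttgggaag
Mcm7 before the start, chr5:138172031-138172058, minus strand: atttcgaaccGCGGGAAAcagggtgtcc
Mcm7 after the start, chr5:138171850-138171877, minus strand: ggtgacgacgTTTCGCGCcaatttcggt

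In Mcm5 the capitals hold 2 overlapping words, on opposite strands. In Mcm6 they hold an overlapping pair and a further word nearer to the start. A word was found in 12 of the 38 genes (31.6%), against 704 of 27025 genes with a window (2.6%) and 320 of 6605 genes compared between conventional iTreg and naive CD4 (4.84%). Among the 21 list genes at least 2-fold higher in conventional iTreg that had a window, 7 held a word (33.3%), namely Cdc6, Mcm3, Mcm5, Mcm6, Mcm7, Pold1 and Lig1. Among the 12 compared list genes with a window that did not reach 2-fold, 1 held a word (8.33%), Cdt1. Of all 839 genes with a window that were at least 2-fold higher in conventional iTreg, 51 held a word (6.08%). Whether the words go with the differences was not tested. The windows of Mcm10, Tk1, Rrm2 and Chaf1a, which had the largest differences by the brightest probe, held none of these letters, which says nothing of whether the factor binds there. A word in a window is a description of its letters and not a measured binding site.

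Signals are given as background-corrected, quantile-normalized log2 values of each gene's brightest probe, and a difference of 1 is a 2-fold change, the size at which a gene is called. A probe counts as detected on an array when its deposited detection p-value is under 0.01. Of the 43 genes with a probe, 39 were detected on at least 1 array and 32 on all 4. Orc1, Pola1, Pole2 and Slbp were detected on none. Cdc6, Mcm10, Rrm2, Tk1 and Chaf1a were detected on both iTreg arrays and on natural Treg but not on naive CD4, a pattern shown by 4.3% of the 8236 genes detected anywhere. Ccne2 and Prim1 were detected on the iTreg arrays alone, as were 5.5% of those genes. Where one array of a pair did not detect a gene, its side was set to the lowest detected signal of that array or to its own value if that was higher, so the fold is a lower bound.

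**Figure D1:**
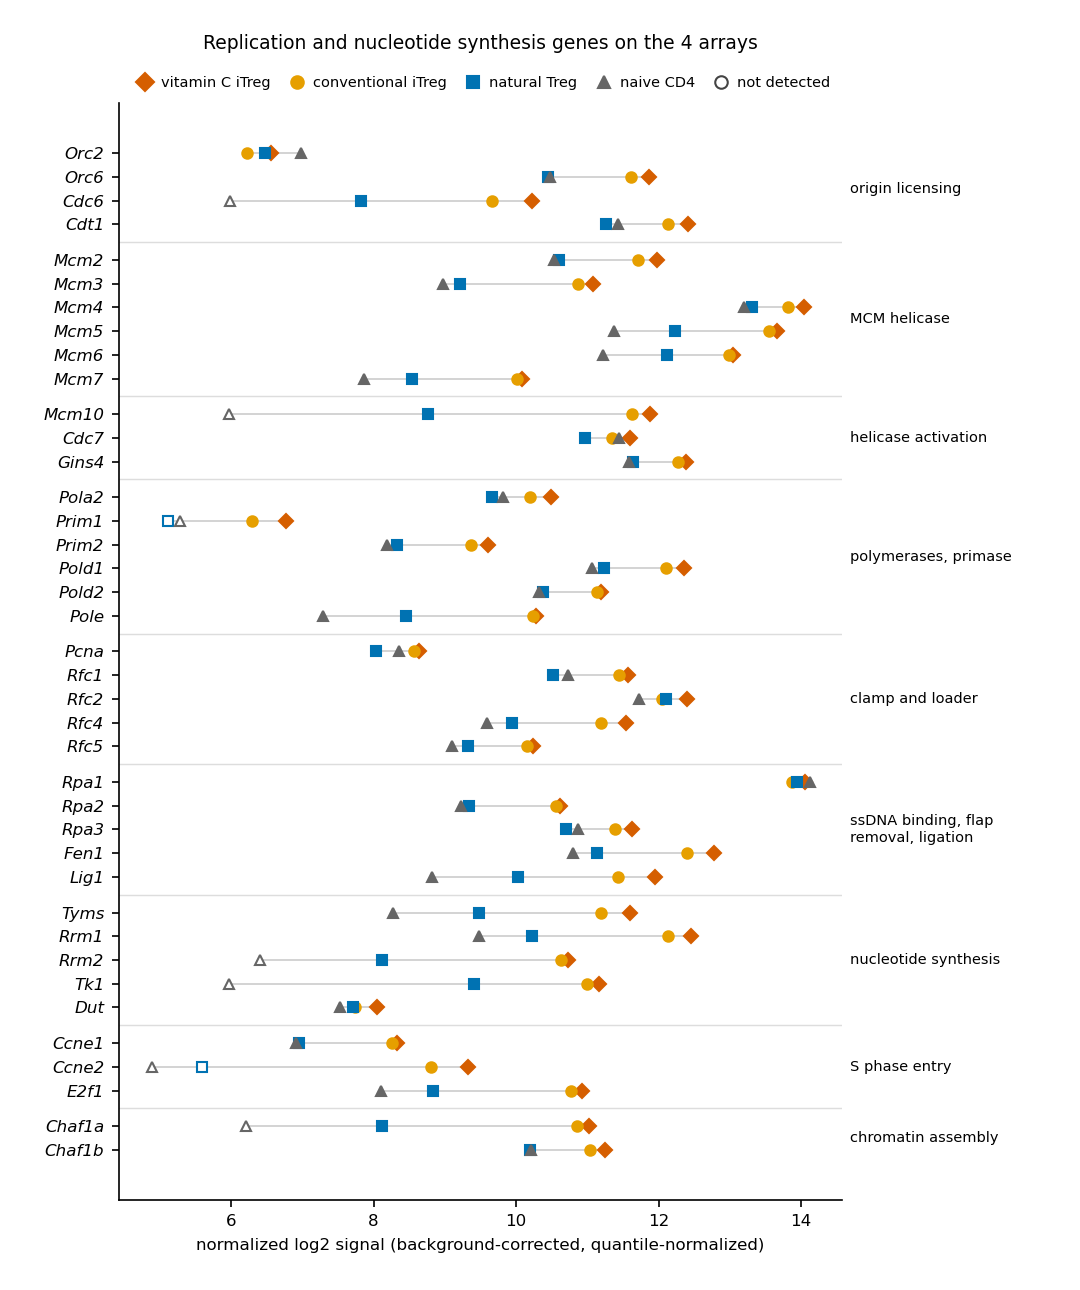
Normalized log2 signal (x axis) of the 39 genes detected on at least 1 array, grouped by role, with 1 point for each array and open points where the probe was not detected. Vitamin C and conventional iTreg lie to the right of natural Treg and naive CD4 for most genes, with Tk1, Mcm10 and Chaf1a showing the widest spans, while Orc2, Cdc7, Rfc2 and Rpa1 do not keep that order.

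Most genes of the list were higher in both iTreg than in naive CD4. Against naive CD4, 25 of the 39 list genes were higher in vitamin C iTreg by 2-fold or more and none was 2-fold lower, when 13.8% of 7945 genes compared were called higher and 16% lower. In conventional iTreg 24 of 39 were at least 2-fold higher and none lower, when 13.2% of 7963 genes were called higher and 14.7% lower. Of the 39, Cdc6, Mcm10, Rrm2, Tk1, Chaf1a, Ccne2 and Prim1 were not detected on naive CD4, so these 7 entered only through the iTreg arrays and could not come out lower, and 6 of them are among the calls. With detection required on both arrays, 19 of 32 genes were at least 2-fold higher in vitamin C iTreg and 18 of 32 in conventional iTreg, and none was lower. The shares of all genes above include bounds, and the matching shares under this stricter filter are not given here. Across all settings, calls higher over all genes numbered 677 to 1409 in vitamin C iTreg and 642 to 1390 in conventional iTreg. The median difference over the list was 1.41 for vitamin C iTreg and 1.18 for conventional iTreg, and over all genes it was -0.09 for vitamin C iTreg and -0.08 for conventional iTreg. Both comparisons use the same naive CD4 array, so they are not independent of each other. In bulk samples, fewer cells that carry a transcript and less of it per cell cannot be told apart. Quantile normalization gives the arrays 1 distribution, so a change in total RNA per cell is not visible here.

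Among the licensing genes, Cdc6, the loader of the helicase ring, read 10.22 in vitamin C iTreg, 9.66 in conventional iTreg, 7.82 in natural Treg and 5.98, not detected, in naive CD4. It was at least 11.9-fold higher in vitamin C iTreg and at least 8.08-fold higher in conventional iTreg than in naive CD4. That call rests on the brightest of 4 Cdc6 probes and was lost when the probes were averaged, since none of the others was detected on both iTreg arrays. Orc6, a subunit of the origin recognition complex, read 11.86 in vitamin C iTreg, 11.61 in conventional iTreg, 10.45 in natural Treg and 10.47 in naive CD4, so both iTreg lay more than 2-fold above both ex vivo samples. Cdt1, the partner of Cdc6 in loading, read 12.41 in vitamin C iTreg, 12.14 in conventional iTreg, 11.26 in natural Treg and 11.43 in naive CD4, and its differences from naive CD4 were 0.98 in vitamin C iTreg and 0.70 in conventional iTreg, under 2-fold. With median centring the Cdt1 difference in vitamin C iTreg was just past 2-fold. Orc2, another subunit of the origin recognition complex, had its highest signal in naive CD4, with 6.56 in vitamin C iTreg, 6.22 in conventional iTreg, 6.48 in natural Treg and 6.97 in naive CD4. Its signal was close to the lowest detected on each array and no Orc2 difference reached 2-fold.

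The 6 genes of the helicase ring were all higher in both iTreg than in either ex vivo sample. Their differences from naive CD4 had a median of 1.97 in vitamin C iTreg and 1.83 in conventional iTreg, with 5 of 6 at least 2-fold higher in each. Mcm5 read 13.66 in vitamin C iTreg, 13.54 in conventional iTreg, 12.23 in natural Treg and 11.38 in naive CD4. It was 4.88-fold above naive CD4 in vitamin C iTreg and 4.49-fold in conventional iTreg. Mcm7 read 10.08 in vitamin C iTreg, 10.01 in conventional iTreg, 8.54 in natural Treg and 7.87 in naive CD4. Its 4.64-fold and 4.42-fold differences from naive CD4, in vitamin C and conventional iTreg, were close to those of Mcm5. Mcm6 read 13.04 in vitamin C iTreg, 12.98 in conventional iTreg, 12.11 in natural Treg and 11.21 in naive CD4. Mcm3 read 11.08 in vitamin C iTreg, 10.87 in conventional iTreg, 9.21 in natural Treg and 8.97 in naive CD4. For these 4 genes natural Treg lay between the cultured cells and naive CD4. Mcm2 read 11.97 in vitamin C iTreg and 11.70 in conventional iTreg, against 10.60 in natural Treg and 10.54 in naive CD4, a difference between the ex vivo samples of 0.06. Mcm4 was the gene of the ring under 2-fold, at 14.04 in vitamin C iTreg, 13.81 in conventional iTreg, 13.31 in natural Treg and 13.20 in naive CD4.

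Mcm10, which helps start the helicase, showed the largest difference of the list by the brightest probe of each gene. It read 11.88 in vitamin C iTreg, 11.63 in conventional iTreg, 8.77 in natural Treg and 5.97, not detected, in naive CD4. Against naive CD4 it was at least 37.5-fold higher in vitamin C iTreg and at least 31.7-fold higher in conventional iTreg. With its probes averaged the lower bound on the log2 scale was 4.01 in vitamin C iTreg and 3.81 in conventional iTreg, below the bounds of Chaf1a. By contrast Cdc7, the kinase that fires origins, read 11.60 in vitamin C iTreg, 11.35 in conventional iTreg, 10.97 in natural Treg and 11.44 in naive CD4, and its signal in naive CD4 lay between the 2 iTreg values. Gins4, a subunit of GINS, read 12.38 in vitamin C iTreg, 12.27 in conventional iTreg, 11.65 in natural Treg and 11.58 in naive CD4, with differences from naive CD4 of 0.80 in vitamin C iTreg and 0.68 in conventional iTreg.

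The polymerase and primase genes varied more among themselves. Pole, the catalytic subunit of polymerase epsilon, read 10.28 in vitamin C iTreg, 10.24 in conventional iTreg, 8.45 in natural Treg and 7.29 in naive CD4. It was 7.91-fold above naive CD4 in vitamin C iTreg and 7.71-fold in conventional iTreg. Pold1, the catalytic subunit of polymerase delta, read 12.35 in vitamin C iTreg, 12.10 in conventional iTreg, 11.23 in natural Treg and 11.06 in naive CD4. Prim2, the large subunit of primase, read 9.60 in vitamin C iTreg, 9.37 in conventional iTreg, 8.32 in natural Treg and 8.19 in naive CD4. Both were a little over 2-fold higher in each iTreg sample than in naive CD4. The Prim2 call in conventional iTreg was lost without background correction, at 0.96, and a further Prim2 probe gave 0.92 there, under 2-fold. Pola2, the second subunit of polymerase alpha, read 10.50 in vitamin C iTreg, 10.20 in conventional iTreg, 9.66 in natural Treg and 9.81 in naive CD4. Pold2, a further subunit of polymerase delta, read 11.19 in vitamin C iTreg, 11.13 in conventional iTreg, 10.38 in natural Treg and 10.31 in naive CD4. Neither reached 2-fold against naive CD4. Prim1, the catalytic subunit of primase, was near the limit of detection at 6.77 in vitamin C iTreg and 6.30 in conventional iTreg, with 5.11 in natural Treg and 5.28 in naive CD4, neither detected. Its bound against naive CD4 was 1.09-fold for vitamin C iTreg and no difference for conventional iTreg, so no change was detectable.

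The clamp and its loader, which opens the clamp around DNA, had a median of 0.85 in vitamin C iTreg and 0.72 in conventional iTreg against naive CD4. Pcna itself read 8.63 in vitamin C iTreg, 8.56 in conventional iTreg, 8.04 in natural Treg and 8.36 in naive CD4, a difference from naive CD4 of 0.27 in vitamin C iTreg and 0.20 in conventional iTreg. Only 1 Pcna probe was named on the array. Rfc4, a small subunit of the loader, read 11.54 in vitamin C iTreg, 11.19 in conventional iTreg, 9.95 in natural Treg and 9.59 in naive CD4. It was 3.84-fold above naive CD4 in vitamin C iTreg and 3.02-fold in conventional iTreg. A further Rfc4 probe gave log2 differences of 0.99 in vitamin C iTreg and 0.67 in conventional iTreg, both under 2-fold. Rfc5, another small subunit, read 10.24 in vitamin C iTreg, 10.15 in conventional iTreg, 9.33 in natural Treg and 9.10 in naive CD4. The Rfc5 call in conventional iTreg, 2.07-fold, was lost without background correction, at 0.94. Rfc1, the large subunit of the loader, read 11.58 in vitamin C iTreg, 11.44 in conventional iTreg, 10.51 in natural Treg and 10.73 in naive CD4. Rfc2 read 12.40 in vitamin C iTreg, 12.05 in conventional iTreg, 12.11 in natural Treg and 11.73 in naive CD4, so natural Treg lay slightly above conventional iTreg. Neither Rfc1 nor Rfc2 reached 2-fold against naive CD4.

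Replication protein A, the trimer that coats single-stranded DNA, was not uniform across its subunits. Rpa2 read 10.62 in vitamin C iTreg, 10.56 in conventional iTreg, 9.34 in natural Treg and 9.23 in naive CD4, over 2-fold higher in both iTreg than in naive CD4. A further Rpa2 probe gave log2 differences from naive CD4 of 1.13 in vitamin C iTreg and 0.85, under 2-fold, in conventional iTreg. Rpa3 read 11.62 in vitamin C iTreg, 11.39 in conventional iTreg, 10.70 in natural Treg and 10.87 in naive CD4, so its difference from naive CD4 was 0.76 in vitamin C iTreg and 0.52 in conventional iTreg. Rpa1 read 14.06 in vitamin C iTreg, 13.86 in conventional iTreg, 13.94 in natural Treg and 14.12 in naive CD4, so naive CD4 had the highest signal and conventional iTreg the lowest. Fen1, the flap nuclease, and Lig1, the ligase that seals the pieces of the lagging strand, were both high in iTreg. Fen1 read 12.78 in vitamin C iTreg, 12.40 in conventional iTreg, 11.13 in natural Treg and 10.80 in naive CD4. Lig1 read 11.95 in vitamin C iTreg, 11.44 in conventional iTreg, 10.02 in natural Treg and 8.82 in naive CD4. It was 8.76-fold above naive CD4 in vitamin C iTreg and 6.12-fold in conventional iTreg, and Fen1 was 3.95-fold and 3.03-fold above it in the same cells.

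Nucleotide synthesis had a median difference from naive CD4, by the brightest probes, of 3.33 in vitamin C iTreg and 2.92 in conventional iTreg, with 4 of 5 genes at least 2-fold higher in each. Tk1, the cytosolic thymidine kinase, read 11.16 in vitamin C iTreg, 10.99 in conventional iTreg, 9.41 in natural Treg and 5.97, not detected, in naive CD4. It was at least 22.8-fold above naive CD4 in vitamin C iTreg and at least 20.3-fold in conventional iTreg. With its probes averaged, 1 of them detected on no array, the lower bound on the log2 scale was 1.79 in vitamin C iTreg and 1.81 in conventional iTreg. The other detected Tk1 probe gave log2 bounds of 1.88 in vitamin C iTreg and 1.78 in conventional iTreg. Rrm2, the small subunit of ribonucleotide reductase, read 10.73 in vitamin C iTreg, 10.63 in conventional iTreg, 8.12 in natural Treg and 6.40, again not detected, in naive CD4, and its bounds over naive CD4 were 17.0-fold in vitamin C iTreg and 15.8-fold in conventional iTreg. Its partner Rrm1 was detected in naive CD4, with 12.45 in vitamin C iTreg, 12.14 in conventional iTreg, 10.22 in natural Treg and 9.47 in naive CD4. Tyms, thymidylate synthase, read 11.60 in vitamin C iTreg, 11.19 in conventional iTreg, 9.47 in natural Treg and 8.27 in naive CD4. It was 10.1-fold above naive CD4 in vitamin C iTreg and 7.58-fold in conventional iTreg. With its probes averaged the Tyms log2 difference was 1.81 in vitamin C iTreg and 1.59 in conventional iTreg, but that average includes probes detected on no array. The other detected Tyms probe, not detected on naive CD4, gave log2 bounds of 3.01 in vitamin C iTreg and 2.48 in conventional iTreg. Dut, the enzyme that removes dUTP, stood apart, reading 8.05 in vitamin C iTreg, 7.74 in conventional iTreg, 7.71 in natural Treg and 7.52 in naive CD4, with differences from naive CD4 of 0.52 in vitamin C iTreg and 0.22 in conventional iTreg.

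All 3 genes of S phase entry were at least 2-fold higher in both iTreg than in naive CD4. E2f1, the activating transcription factor, read 10.93 in vitamin C iTreg, 10.77 in conventional iTreg, 8.83 in natural Treg and 8.10 in naive CD4. Ccne1, which encodes cyclin E1, read 8.33 in vitamin C iTreg, 8.26 in conventional iTreg, 6.95 in natural Treg and 6.91 in naive CD4, and its call was lost without background correction, at 0.94 for vitamin C iTreg and 0.89 for conventional iTreg. Ccne2, which encodes cyclin E2, read 9.33 in vitamin C iTreg and 8.81 in conventional iTreg, against 5.59 in natural Treg and 4.89 in naive CD4, neither detected. Against naive CD4 it was at least 6.40-fold higher in vitamin C iTreg and at least 4.46-fold higher in conventional iTreg.

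Chromatin assembly factor 1 places histones on new DNA. Its large subunit gene Chaf1a read 11.03 in vitamin C iTreg, 10.85 in conventional iTreg, 8.11 in natural Treg and 6.20, not detected, in naive CD4. It was at least 20.8-fold above naive CD4 in vitamin C iTreg and at least 18.5-fold in conventional iTreg. Chaf1b, its next subunit, read 11.24 in vitamin C iTreg, 11.04 in conventional iTreg, 10.19 in natural Treg and 10.22 in naive CD4. Chaf1b was the gene called against naive CD4 in vitamin C iTreg (2.04-fold) and not in conventional iTreg (1.77-fold), and its log2 difference of 1.03 in vitamin C iTreg was 0.97 without background correction.

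**Figure D2:**
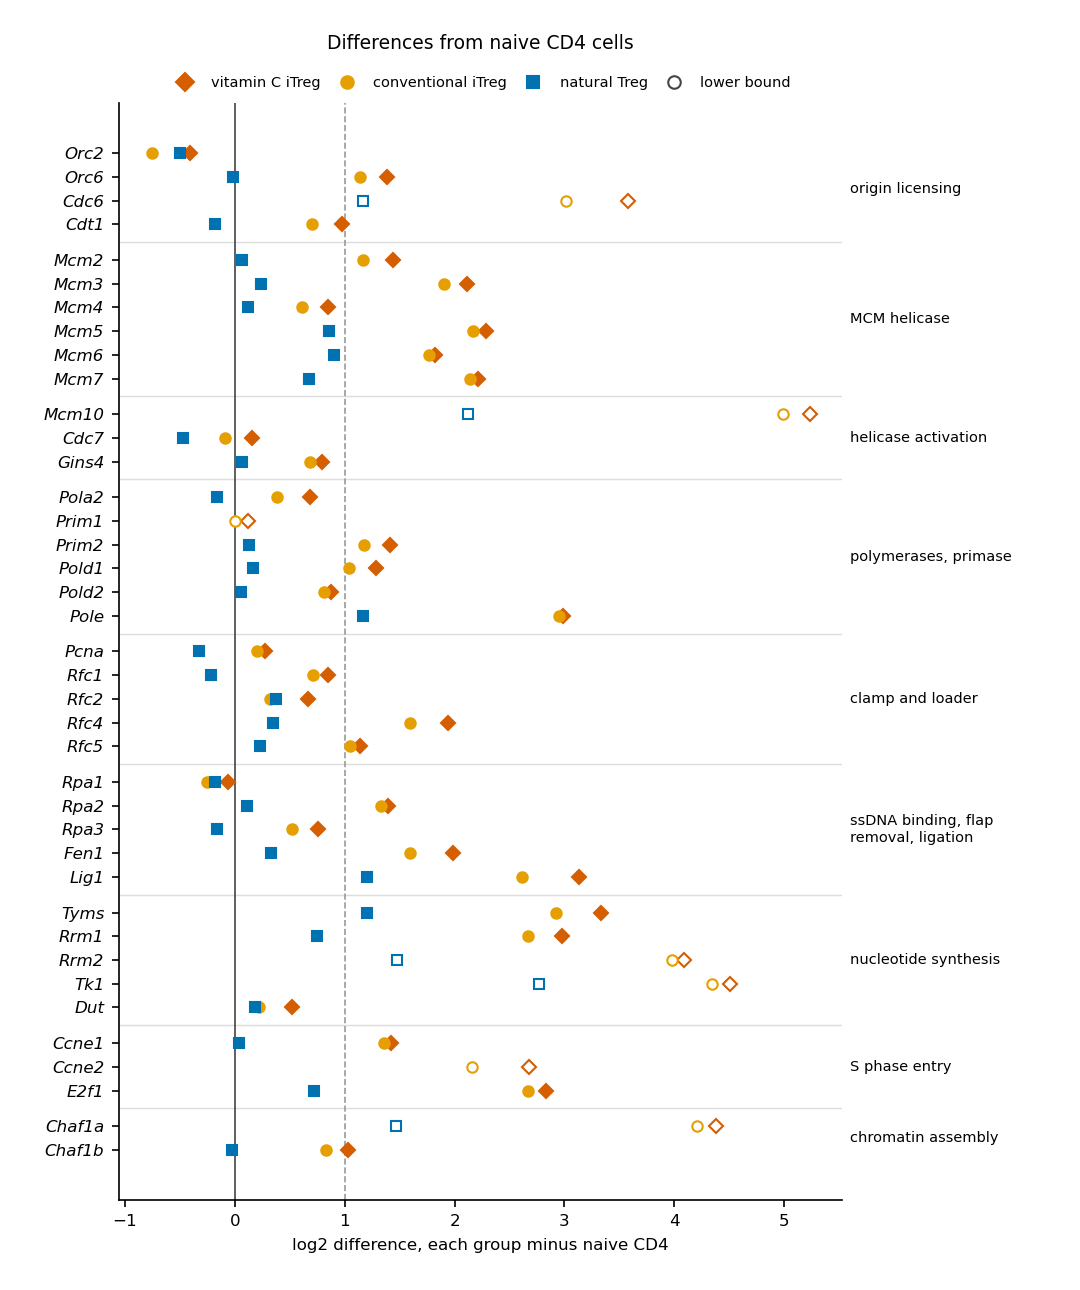
Log2 difference from naive CD4 (x axis) for each gene in vitamin C iTreg, conventional iTreg and natural Treg, with open symbols for lower bounds and a dashed line at 2-fold. Mcm10, Tk1, Chaf1a and Rrm2 lie furthest right in both iTreg, while natural Treg stay left of the dashed line except for 8 genes, 5 of them bounds.

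Natural Treg lay closer to naive CD4. Of the 37 list genes that could be set against it, 8 were higher in natural Treg by 2-fold or more and none was 2-fold lower, when 6.03% of 7582 genes were called higher and 2.03% lower. These were Cdc6 (at least 2.25-fold), Mcm10 (at least 4.34-fold), Rrm2 (at least 2.78-fold), Tk1 (at least 6.80-fold), Chaf1a (at least 2.77-fold), Pole (2.24-fold), Lig1 (2.30-fold) and Tyms (2.30-fold). The count was 3 without background correction or with detection required on both arrays, and 2 when probes were averaged. Over all genes the calls higher went from 457 to 328 without background correction, and ranged over 291 to 667 across all settings. The median difference over the list was 0.19, and 27 of the 37 genes were above 0 and 10 below, when 41.0% of genes were above 0. The lowest were Orc2 at -0.50, Cdc7 at -0.47 and Pcna at -0.32. The other 7 below 0, Orc6, Cdt1, Pola2, Rfc1, Rpa1, Rpa3 and Chaf1b, lay within 0.22 of naive CD4. All 6 genes of the helicase ring were above 0, except that Mcm2 was below 0 with median centring and Mcm4 with probes averaged, and Mcm6 at 0.90 and Mcm5 at 0.86 were the highest of them. Gins4 and Pold2, at 0.06 each, also lay below 0 with median centring.

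Against natural Treg, 25 of 39 genes were at least 2-fold higher in vitamin C iTreg and none lower, when 11.7% of 8034 genes were called higher and 13.0% lower. In conventional iTreg 21 of 39 were at least 2-fold higher and none lower, when 11.1% of 8031 genes were called higher and 12.0% lower. Ccne2 and Prim1 were not detected on natural Treg, so these 2 could not come out lower. The list median was 1.28 for vitamin C iTreg and 1.10 for conventional iTreg, and both comparisons share the natural Treg array. Mcm10 was 8.64-fold higher in vitamin C iTreg than in natural Treg and 7.29-fold higher in conventional iTreg, as Chaf1a was by 7.52-fold in vitamin C iTreg and 6.67-fold in conventional iTreg. Ccne2 was at least 8.07-fold above natural Treg in vitamin C iTreg and at least 5.62-fold in conventional iTreg. Mcm6 did not reach 2-fold by its brightest probe, at 1.90-fold in vitamin C iTreg and 1.83-fold in conventional iTreg, but 2 other Mcm6 probes read 13.06 and 13.10 in vitamin C iTreg, against 11.34 and 11.46 in natural Treg. With the probes averaged the Mcm6 difference was 1.51 for vitamin C iTreg and 1.49 for conventional iTreg.

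Among the 32 genes detected on all 4 arrays, both iTreg were above both ex vivo samples for 28, a placement shown by 32.0% of the 6547 genes detected on all 4. The exceptions were Orc2, Cdc7, Rpa1 and Rfc2, and Rfc2 joined the 28 when the arrays were median-centred. The full order vitamin C iTreg, conventional iTreg, natural Treg, naive CD4 was seen for 21 of the 32 and for 10.1% of those 6547 genes. For 7 more, Orc6, Cdt1, Pola2, Pcna, Rfc1, Rpa3 and Chaf1b, natural Treg and naive CD4 were exchanged, an order shown by 7.7% of genes. Neighbours such as the iTreg values of Pole, 0.04 apart, and the ex vivo values of Gins4, 0.06 apart, differed by less than probes of 1 gene did (SD 0.21 and 0.24 in these comparisons).

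With vitamin C against without, the differences were small and of 1 direction. All 39 genes compared were higher in vitamin C iTreg than in conventional iTreg, when 48.4% of 7756 genes were above 0. None was called at 2-fold in either direction, when 0.941% of genes were called higher and 0.812% lower. The list differences lay between 0.04 and 0.56 with a median of 0.23, and the median of all genes was -0.01. Their size is near the disagreement between probes of 1 gene. Other probes of a gene differed from its brightest probe in this comparison by an SD of 0.21 over 2694 probes. Those probes share RNA, labelling and array, so this SD does not measure the noise between arrays, which 1 array per group cannot give. The conventional iTreg array also serves the comparison with naive CD4, so the 2 sets of differences are not independent. With 1 array a group, a difference between the 2 cultures or between the 2 hybridizations cannot be told apart from an effect of vitamin C.

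The 6 highest genes were Cdc6 at 0.56, Ccne2 at 0.52, Lig1 at 0.52, Prim1 at 0.47, Tyms at 0.41 and Fen1 at 0.39, that is 1.47-fold to 1.31-fold. The 6 lowest were Pole at 0.04, Mcm6, Pold2 and Rpa2 at 0.06, and Ccne1 and Mcm7 at 0.07. By role, the median was 0.31 for licensing, 0.30 for nucleotide synthesis, 0.24 for the polymerases, 0.24 for helicase activation, 0.23 for single-stranded DNA binding and ligation, 0.19 for chromatin assembly, 0.17 for the helicase ring, 0.16 for S phase entry and 0.13 for the clamp and loader. The lowest licensing gene was Orc6 at 0.25, while the polymerases held both Pole at 0.04 and Prim1 at 0.47.

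Of 54 probes of these genes detected on both iTreg arrays, 51 were above 0 and 3 below, with a median of 0.22. The 54 include the 39 brightest probes already counted, so only the further probes add to that count. Probes of a gene share RNA, labelling and array, so they check only the probe. The 3 below 0 were further probes, 1 each of Lig1 (-0.11), Rrm2 (-0.09) and Mcm6 (-0.02), from genes whose brightest probe was above 0. The brightest Lig1 probe, at 0.52, and the further Lig1 probes, at 0.09 and 0.09, show how far probes of 1 gene can part. The 2 further Mcm4 probes, at 0.42 and 0.61, exceeded the brightest, at 0.23. A further Cdc6 probe was detected on conventional iTreg only, where it read 6.21, against 5.55 in vitamin C iTreg. With the probes of a gene averaged, 37 of 39 genes were above 0, with Cdc6 and Tk1 below. Both averages include probes detected on neither iTreg array. The Tk1 probes detected on both were above 0, at 0.16 and 0.09. When only genes averaging at least 8 on the log2 scale were kept, a limit set after the values were seen, 47.9% of 5822 genes were above 0. The 34 list genes kept were all above 0, but this was fixed beforehand, since all 39 were above 0 by the brightest probe. It adds nothing to that count.

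**Figure D3:**
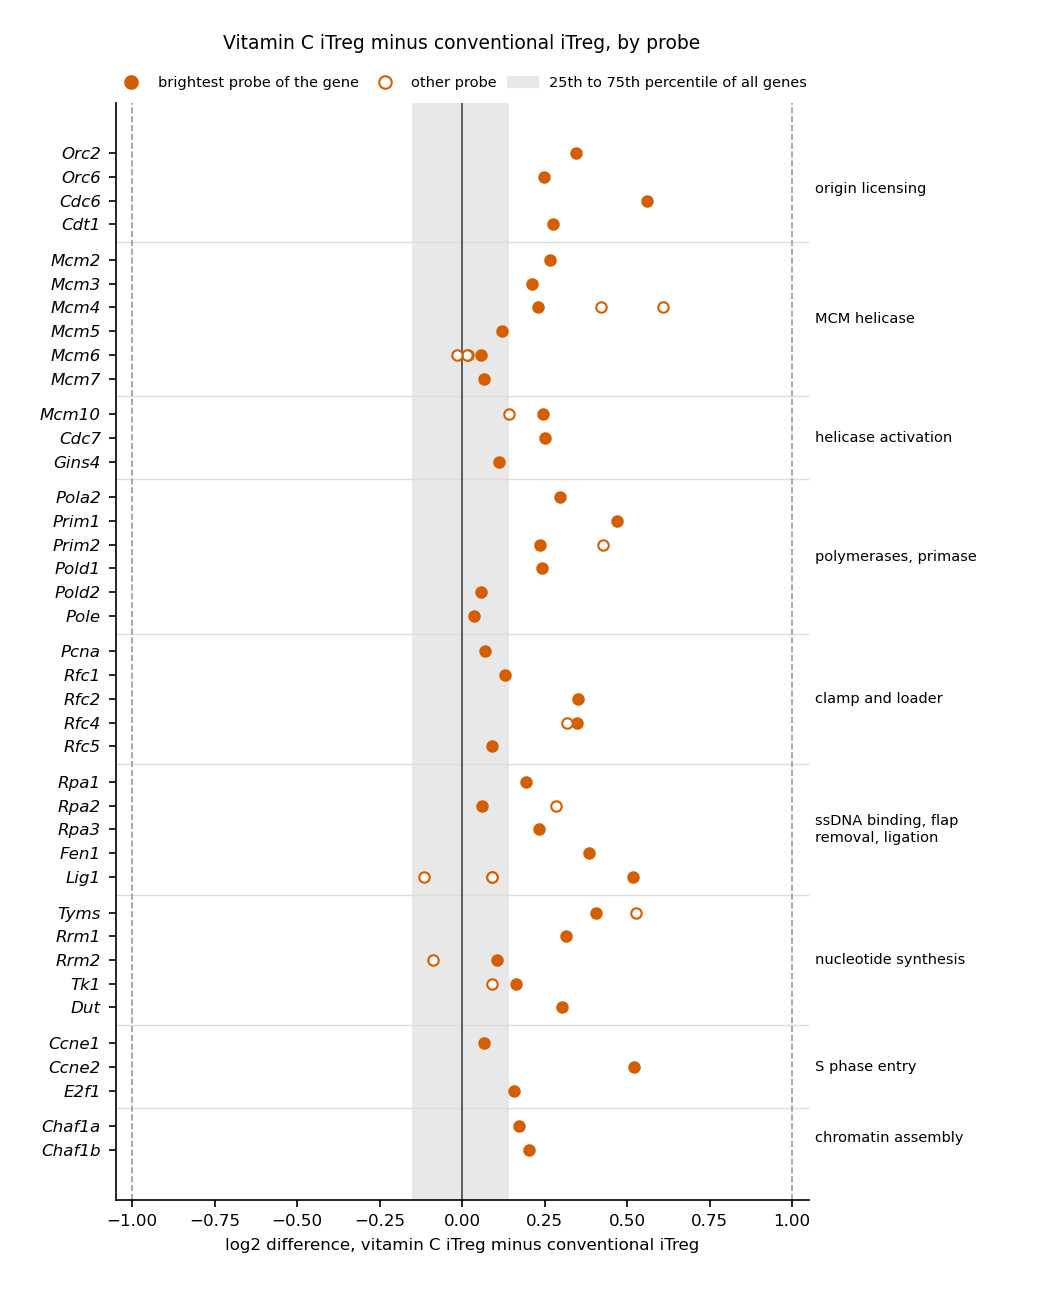
Log2 difference of vitamin C iTreg minus conventional iTreg (x axis) for each gene, with filled points for the brightest probe and open points for other probes detected on both arrays, dashed lines at 2-fold and a grey band from the 25th to the 75th percentile of all genes compared (-0.15 to 0.14). All 39 filled points lie right of 0, between 0.04 and 0.56, and 3 open points, of Lig1, Rrm2 and Mcm6, lie left of it.

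Other lists of related genes were set beside the same background, 13.2% of all genes higher and 14.7% lower at 2-fold in conventional iTreg than in naive CD4. Of 23 other replication factors compared between conventional iTreg and naive CD4, 9 rose at least 2-fold and 2 fell, with a median of 0.70 that was 0.32 with probes averaged. Of the 23, 3 were not detected on naive CD4 and could not come out lower. In vitamin C iTreg 9 of 24 rose and 2 fell, with a median of 0.34. Clspn, a mediator of the replication checkpoint, read 11.63 in vitamin C iTreg, 11.31 in conventional iTreg, 8.83 in natural Treg and 6.19, not detected, in naive CD4. Uhrf1, which carries DNA methylation through replication, read 13.20 in vitamin C iTreg, 13.05 in conventional iTreg, 11.01 in natural Treg and 9.21 in naive CD4. Cdc45, the helicase partner of the Mcm ring and GINS, read 10.95 in vitamin C iTreg, 10.64 in conventional iTreg, 8.34 in natural Treg and 6.90 in naive CD4. Chtf18, of an alternative clamp loader, was 4.83-fold higher in conventional iTreg. The 2 that fell, named after their values were seen, were Orc4 (-1.63), of the origin recognition complex, and Pole4 (-1.26), an accessory subunit of polymerase epsilon. In vitamin C iTreg against conventional iTreg, 18 of 24 were above 0 and 6 below, when 48.4% of all genes were above 0, with a median of 0.10, the widest being Pold4 at -0.49, Chtf18 at 0.36, Clspn at 0.32 and Mcm9 at -0.32.

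Of 27 other nucleotide genes compared between conventional iTreg and naive CD4, 2 rose at least 2-fold and 4 fell, when 13.2% of all genes were called higher and 14.7% lower, with a median of 0.10 that was 0.02 with probes averaged. Shmt1 (1.40) and Mthfd2 (1.06), enzymes of folate metabolism, were the ones that rose. Rrm2b, the ribonucleotide reductase subunit used outside S phase, fell by 1.75 on the log2 scale, Impdh1, of guanine nucleotide synthesis, fell by 1.42, Tk2, the mitochondrial thymidine kinase, fell by 1.36, and Ctps2, a CTP synthase named after its value was seen, fell by 1.25. So Rrm2 and Tk1 were high in iTreg while their counterparts Rrm2b and Tk2 were low. With vitamin C, 15 of the 27 were above 0 and 12 below, when 48.4% of all genes were above 0, with a median of 0.00, and the widest were Rrm2b at -0.47, Mthfd2 at -0.40, Tk2 at -0.34 and Impdh1 at -0.33.

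Of 13 other genes of the E2F and retinoblastoma families, 4 rose at least 2-fold in conventional iTreg against naive CD4 and none fell, when 13.2% of all genes were called higher and 14.7% lower, with a median of 0.21 that was 0.48 with no detection filter. They were E2f3 (1.70) and E2f2 (1.09), activating E2F factors, and Tfdp1 (1.63) and Tfdp2 (1.5), their dimer partners. With vitamin C 9 of 13 were above 0, when 48.4% of all genes were, with a median of 0.07, and the widest were Rbl1, a relative of the retinoblastoma protein, at 0.41, E2f3 at 0.32, Rbl2 at -0.26 and E2f5 at -0.22. Of 24 mitosis and spindle genes, 21 rose at least 2-fold in conventional iTreg against naive CD4 and 1 fell (Pttg1, securin, -1.23), with a median of 3.28, above that of the replication list. Of the 24, 10 were not detected on naive CD4, so they entered only through the iTreg array and could not come out lower. Nusap1, a spindle protein, was 39.5-fold higher, Birc5, of the chromosomal passenger complex, 30.7-fold, Top2a, the topoisomerase that untangles chromosomes, 23.8-fold and Cdk1, the mitotic kinase, at least 26.2-fold. With vitamin C, 24 of 26 mitosis genes were above 0 and 2 below, when 48.4% of all genes were above 0, with a median of 0.16, the widest being Pttg1 at -0.46, Cdc20 at 0.35, Mad2l1 at 0.31 and Prc1 at 0.29. None of these 4 lists had a gene past 2-fold with vitamin C. In natural Treg against naive CD4 the medians were -0.02 for the other replication factors, -0.08 for the other nucleotide genes, 0.02 for the E2F and retinoblastoma genes and 0.57 for the mitosis genes.

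**Figure D4:**
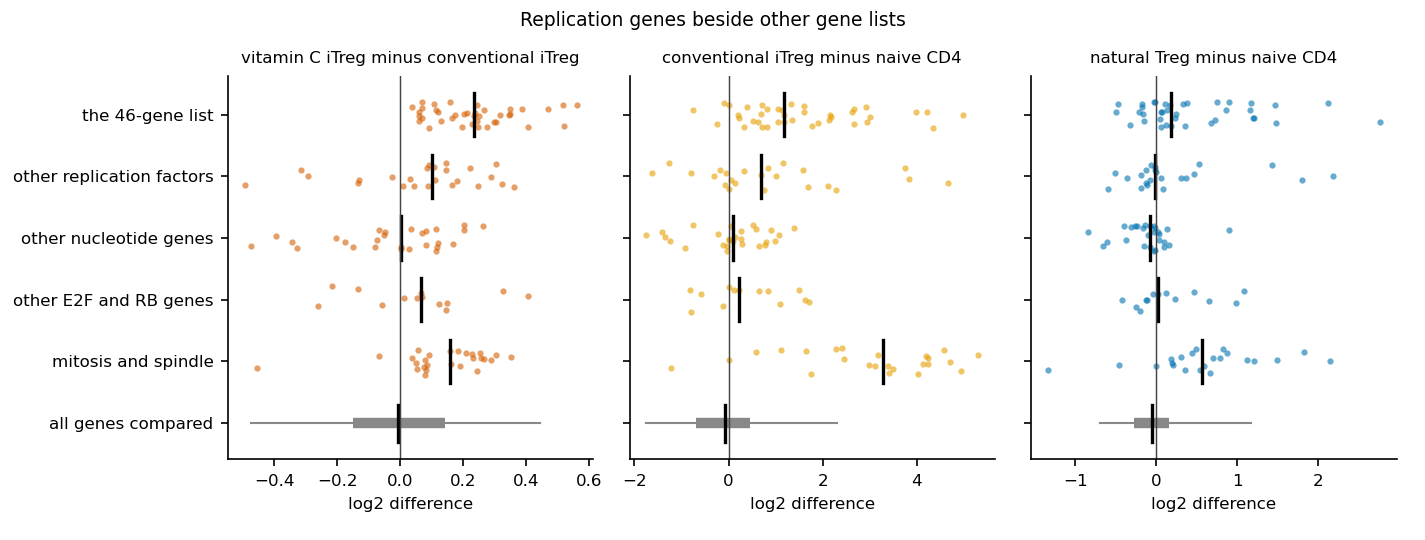
Log2 differences (x axis, a different scale in each panel) of the replication list and 4 other lists, each point a gene and each black bar the median, for vitamin C iTreg minus conventional iTreg, conventional iTreg minus naive CD4 and natural Treg minus naive CD4, with the 25th to 75th percentile (thick) and the 5th to 95th percentile (thin) of all genes compared. In the left panel the replication list, with a median of 0.23, is the one list with no gene below 0, and in the middle panel the mitosis list, at 3.28, lies above it, at 1.18.

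The arrays differed somewhat in reach. The lowest detected signal was 6.19 on vitamin C iTreg, 6.165 on conventional iTreg, 6.31 on natural Treg and 6.65 on naive CD4. A signal that counted as detected on an iTreg array could thus be undetected on naive CD4. Between 7027 genes (naive CD4) and 7603 genes (conventional iTreg) were detected, and the median deposited intensity was highest on the vitamin C iTreg array, at 157, followed by conventional iTreg at 144, natural Treg at 135 and naive CD4 at 132. All 9 T cell identity genes with a probe were detected on every array. Of 7 signature genes of regulatory T cells, 6 were detected on each iTreg array, 7 on natural Treg and 4 on naive CD4. Foxp3 and Il2ra were detected on all arrays but naive CD4, and Ikzf2 on natural Treg alone. Ctla4, Tnfrsf18, Nrp1 and Itgae were detected on every array, naive CD4 included. Of 7 B cell markers with a probe only 1, Cd79b, was detected, and of 2 red cell markers only 1, Hba-a1. Both were detected on the natural Treg and naive CD4 arrays and not on the iTreg arrays. Of 7 CD8 and NK cell markers, 3 were detected on each iTreg array and 2 on each ex vivo array, and of 8 myeloid markers 2 on each iTreg array and 1 on each ex vivo array. The summed log2 signal of the 4 naive cell markers was 40.1 in vitamin C iTreg, 42.7 in conventional iTreg, 46.9 in natural Treg and 50.4 in naive CD4. That sum runs in the opposite order to the 21 list genes above, but those were grouped by that order, so the contrast was set by the choice. Of the 4 markers, 1 was higher in both iTreg than in natural Treg, and a link to the replication genes was not tested. Between the iTreg arrays, Fcer1g, a myeloid marker, was 3.76-fold higher in vitamin C than in conventional iTreg. Of the 3 CD8 and NK cell markers detected there, Nkg7 was 3.26-fold and Klrd1 1.98-fold lower. The third, Cd8b1, was higher in vitamin C iTreg, by 0.56 on the log2 scale. The differences of Fcer1g, Nkg7 and Klrd1 exceed the largest of the replication list with vitamin C, 1.47-fold. The part of other cells in the results was not tested.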

How the data were processed

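Gene expression was read on Illumina bead arrays from 4 samples of mouse CD4 T cells, 1 array per group, with 550 ng of total RNA labelled as biotin cRNA per the labels' protocols. Per the file headers, the deposited signal table gives every probe an intensity on a linear scale and a detection p-value on each array. The submitters' processing notes name GenomeStudio 2011.1, but background subtraction at that step is not stated in the labels. The authors' deposited value table is on a log2 scale and equals a quantile normalization of the log2 intensity; it served as an alternative. The detection columns carry no sample name of their own and were read beside the intensity column they follow.

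Intensities were background-corrected with normexp, using negative control values inferred from the detection p-values, with an offset of 16, then quantile-normalized and put on the log2 scale (neqc of limma 3.58.1 in R 4.3.3). Of 25697 probes, 23978 had 1 gene symbol in the platform annotation and 1719 had none; 23971 were matched to RefSeq. The probe with the highest mean stood for its gene, and a gene was compared where at least 1 array of the pair detected it at a detection p-value under 0.01. With 1 array per group no test or error is possible, and the number of arrays limits the precision; genes are called at 2-fold. Sums and counts were tabulated in Python 3.11.15, and the calling rule was tested on simulated data. Only bright genes were changed in the simulation, with an assumed noise, so it does not cover undetected genes and their bounds.

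The members, roles, other lists and promoter words were chosen with earlier results of these data known. Values on all 4 arrays may be given for any detected member; of the other lists, the 4 genes with the widest difference in conventional iTreg minus naive CD4 and the 4 in vitamin C minus conventional iTreg are named. Margins for calling an alternative alike were set after the data were known. The 8 alternatives were no background correction, an offset of 50, median centring, the authors' log2 values, a detection limit of 0.05, detection on both arrays, no detection filter, and the mean of a gene's probes.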

Additional observations from a re-analysis of the deposited data

How the results depend on the processing

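With 1 array per group nothing here measures the spread between samples, and dim genes such as Orc2, Prim1 and Dut are limited by their signal over background. No paired analysis was possible because each group has 1 array and no result comes from a test. The median of the replication list was above 0 under all 8 alternatives in all 6 comparisons. The median of the other E2F and retinoblastoma genes in natural Treg minus naive CD4, 0.02, was -0.01 with probes averaged, and the median of all genes with vitamin C against without, -0.01, was 0.01 with median centring. The median of vitamin C iTreg minus conventional iTreg ranged over 0.19 to 0.27, with 37 to 41 genes above 0 and none called at 2-fold under any of them. The number of genes at least 2-fold higher than naive CD4 ranged over 19 to 26 in vitamin C iTreg and 18 to 25 in conventional iTreg. For natural Treg minus naive CD4, the count of 8 became 3 without background correction, 3 with the authors' log2 values, 3 with detection on both arrays, where bounds are left out, and 2 with probes averaged; the cause of the others was not tested. The median of conventional iTreg minus naive CD4 became 1.40 with median centring. The median of conventional iTreg minus natural Treg became 0.89 without background correction and 0.89 with the authors' log2 values.

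Median centring raised the median of all genes by 0.14 in vitamin C iTreg minus natural Treg and by 0.13 in conventional iTreg minus natural Treg, and the share of higher among all 2-fold calls became 58.1% (main 47.4%) and 58.4% (main 48.1%). The balance of all calls turned with it: the 943 higher and 1048 lower in vitamin C iTreg minus natural Treg became 1144 and 826, and the 1098 higher and 1268 lower in vitamin C iTreg minus naive CD4 became 1290 and 1032. In conventional iTreg the 893 higher and 963 lower than natural Treg became 1071 and 764, and the 1051 higher and 1174 lower than naive CD4 became 1209 and 972. Over all genes, the calls with vitamin C against without numbered 73 higher and 63 lower, and ranged over 34 to 87 higher and 20 to 99 lower. For natural Treg minus naive CD4 the 457 higher and 154 lower ranged over 291 to 667 and 85 to 228. For vitamin C iTreg minus naive CD4 the 1098 higher ranged over 677 to 1409, and for conventional iTreg the 1051 higher ranged over 642 to 1390.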

Other observations

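The CCAAT box, read as CCAAT on either strand, was found in the promoter windows of 22 of 38 replication genes (57.9%), against 41.1% of all genes with a window and 43.9% of the genes compared between conventional iTreg and naive CD4. Among 30 mitosis and spindle genes with a window it was found in 22 (73.3%), and an E2F word in 1 (3.33%). Among 26 other replication factors with a window, an E2F word was found in 9 (34.6%) and a CCAAT box in 13. The median GC content of the windows was 62.3% for the replication genes, 63.5% for the other replication factors, 59.0% for the mitosis genes, 60.7% for the genes compared and 52.7% for all genes. Orc1, Pola1, Pole2 and Rfc3, which gave no level on these arrays, also held an E2F word. These are counts of letters in windows, with no test.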
